A study of Homo sapiens with 8 samples.

Results

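The 41 genes described here encode proteins that cells make more of when oxygen is short, together with the enzymes and transporters that carry glucose to lactate. They were chosen by symbol: the rows of the deposited count table whose Ensembl identifiers carry these symbols in GENCODE 29. The choice was made with earlier results of these data known. All 41 were found among the 58336 genes of the table, and all 41 were among the 15220 genes with enough counts to be tested. Of them, 21 are grouped as glucose-to-lactate genes, which include PDK1, PGM1, PFKFB3 and PFKFB4 beside the path itself. The other 20 are genes known to be induced by hypoxia. The libraries came from Sum159, a long-established line of human breast cancer cells of the triple-negative kind, and fall into 3 groups. The labels give a high or low level of integrin beta 4 (ITGB4) as the genotype, and how it was set is not given in the sources used here. The ITGB4-high group held 2 libraries and the ITGB4-low group 3, both from cells grown in dishes. All ITGB4-low libraries came from clone 1, so they stand for a single clone. The lung-recovered group held 3 libraries of the same clone 1 after a stay in mice. Those cells entered by tail vein, and the mice got bleomycin, a lung-injuring drug, through the trachea. The dissociated lungs were then cultured overnight, and tdTomato-positive tumour cells were sorted the next day. Lung passage, bleomycin, dissociation, overnight culture and sorting came together in that group, so their parts cannot be told apart.

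As background, oxygen-dependent prolyl hydroxylases mark the alpha subunits of the hypoxia-inducible factors (HIF) for destruction by the VHL ubiquitin ligase. When oxygen falls, the alpha subunits accumulate, pair with ARNT and bind a short DNA element in target genes. The targets include glucose transporters, glycolytic enzymes, regulators of pH and mitophagy, secreted vessel factors, and hydroxylases that feed back on the pathway. HIF alpha is regulated chiefly as a protein, which these RNA counts do not measure. Several of the targets also respond to other signals, such as PPAR and glucocorticoid ligands for ANGPTL4. The culture medium named in the labels holds insulin and hydrocortisone. The part of such signals or of the medium in the results below was not tested.

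The core of the DNA element read by HIF is ACGTG or GCGTG. RefSeq promoters (GRCh38.p14, 250 bases before to 50 after the start) were given for 36 of the 41 genes, all but BNIP3L, HILPDA, NDRG1, SLC2A3 and VEGFA. On either strand, 1 or both of these cores stood in 27 of the 36 windows (75.0%), against 63.2% of the 10439 promoters of tested genes and 48.4% of the 27305 promoters in the table. ACGTG alone stood in 18 of the 36 (50.0%), against 26.7% and 21.6%. The 250 bases before the start are printed 5′ to 3′ on the gene's own strand for 5 genes to which the results return: CA9 and BNIP3, with the largest rises in the ITGB4-low clone, LDHA and PGK1, 2 abundant enzymes of glycolysis, and ANGPTL4, which had the largest fall. Capitals mark the matches, so CACGT and CACGC are cores read on the opposite strand and CACGTG is a match on both. The stretches are CA9 chr9:35673678-35673927 (plus strand), BNIP3 chr10:131981924-131982173 (minus strand), LDHA chr11:18394313-18394562 (plus strand), PGK1 chrX:78103998-78104247 (plus strand) and ANGPTL4 chr19:8363905-8364154 (plus strand).
CA9: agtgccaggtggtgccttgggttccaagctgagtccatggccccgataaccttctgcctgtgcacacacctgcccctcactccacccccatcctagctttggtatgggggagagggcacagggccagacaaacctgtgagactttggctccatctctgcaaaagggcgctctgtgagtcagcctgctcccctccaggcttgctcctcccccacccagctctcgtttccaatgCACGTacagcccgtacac
BNIP3: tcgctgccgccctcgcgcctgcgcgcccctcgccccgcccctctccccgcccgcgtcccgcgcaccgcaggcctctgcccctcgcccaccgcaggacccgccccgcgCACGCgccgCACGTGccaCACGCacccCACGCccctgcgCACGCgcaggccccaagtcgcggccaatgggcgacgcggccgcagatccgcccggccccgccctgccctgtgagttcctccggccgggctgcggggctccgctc
LDHA: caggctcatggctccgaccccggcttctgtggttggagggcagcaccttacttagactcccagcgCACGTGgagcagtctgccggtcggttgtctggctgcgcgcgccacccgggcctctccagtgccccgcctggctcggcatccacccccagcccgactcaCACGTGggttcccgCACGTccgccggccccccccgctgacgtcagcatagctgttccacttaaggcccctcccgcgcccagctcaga
PGK1: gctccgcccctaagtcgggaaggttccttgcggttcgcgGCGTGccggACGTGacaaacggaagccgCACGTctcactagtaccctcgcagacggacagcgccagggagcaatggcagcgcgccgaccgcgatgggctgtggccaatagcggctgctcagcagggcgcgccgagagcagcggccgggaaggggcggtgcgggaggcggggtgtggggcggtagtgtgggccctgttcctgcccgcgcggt
ANGPTL4: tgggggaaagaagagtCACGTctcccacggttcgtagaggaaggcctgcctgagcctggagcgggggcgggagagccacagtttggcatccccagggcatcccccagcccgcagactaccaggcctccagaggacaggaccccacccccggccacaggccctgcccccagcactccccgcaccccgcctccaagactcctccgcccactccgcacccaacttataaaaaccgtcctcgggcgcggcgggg
The stretches hold 1 match in CA9, 6 in BNIP3, 5 in LDHA, 3 in PGK1 and 1 in ANGPTL4. The single CA9 match begins 18 bases before the start and the single ANGPTL4 match 234 bases before it. A match is a string of letters and not a measured binding site. Windows of EGLN3, HK1, MXI1, P4HA2, PDK1, PFKP, PGM1, SLC16A3 and TPI1 held no match.

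Library totals ran from 20.41 to 27.22 M counts, with 1.16 to 1.74% of counts from mitochondrial genes. Levels are CPM, a gene's counts scaled to a common library size, after TMM scaling. The gene named in the labels followed them in the dish-grown cells: ITGB4 stood at 420 and 376 CPM in ITGB4-high, 5.29 to 9.13 CPM in ITGB4-low, and 376 to 407 CPM in the lung-recovered libraries. The lung-recovered libraries carry the label of the low clone but stood at the ITGB4-high level (log2 -0.01 ± 0.07, adjusted p = 0.903, edgeR quasi-likelihood test), so only ITGB4-low differed in ITGB4. Of the fixed markers of Sum159, VIM and CD44 were abundant in every group, and the mean ESR1 level was at or under 0.0773 CPM and PGR at 0. CD44 (446, 669 and 663 CPM by group) and AXL (154, 494 and 339) were called higher in ITGB4-low than in ITGB4-high. AXL was lower in lung-recovered than in ITGB4-low cells, and ERBB2 stood at 67.5, 66.4 and 67.3 CPM by group. Of human markers of other cell types, 4 of 13 myeloid genes (AIF1, TYROBP, C1QA, C1QB), 4 of 7 lymphocyte genes, 5 of 10 lung epithelial genes and 4 of 5 erythroid genes had no count in any library. The host was a mouse and the genome named for the alignment is human, so host cells would count here only where mouse reads align to human genes. These markers therefore cannot show whether host cells were present. Summed over the list, myeloid markers stood at 3.62 to 4.64 CPM in ITGB4-high, 6.12 to 6.46 in ITGB4-low and 7.48 to 8.38 in lung-recovered libraries. Of the 13, MARCO rose between the last 2 groups, and CD68 and PTPRC rose in ITGB4-low, PTPRC from 0 counts to 58. Endothelial markers, of which 1 of 8 (CLDN5) was at 0, summed to 3.35 to 4.04, 3.59 to 5.67 and 2.82 to 3.45 CPM. KDR (3.39, 3.98 and 2.43 CPM by group) and TEK (5, 44 and 17 counts) fell in lung-recovered against ITGB4-low cells, and TEK rose in ITGB4-low. Too scarce to test, PECAM1 (4, 10 and 25 counts by group) and EMCN (0, 0 and 6) had the most counts in lung-recovered libraries. These were spread unevenly, with 0.126, 0.804 and 0.188 CPM of PECAM1 and 0.210, 0 and 0.0376 CPM of EMCN in lung-recovered replicates 1, 2 and 3. VWF had 1, 8 and 0 counts, TIE1 5, 2 and 2, and CDH5 1, 0 and 1. Lung epithelial markers summed to at most 2.05 CPM, and NKX2-1 had 1 count in ITGB4-high, 69 in ITGB4-low and 5 in lung-recovered libraries. Fibroblast and smooth muscle markers summed to 50.5 to 57.9, 54.9 to 65.9 and 126.9 to 134.8 CPM, none of the 9 being at 0 throughout. Of these 9, COL1A1 (28.1, 30.7 and 101 CPM by group), COL3A1 (0.154, 0.490 and 1.83) and PDGFRB (3.09, 13.8 and 10.7) changed between ITGB4-low and lung-recovered libraries, the collagens upwards and PDGFRB downwards. PDGFRB and COL3A1 also rose and DCN fell (5.86 to 2.32 CPM) in ITGB4-low against ITGB4-high, ACTA2 stood at 12.9 to 16.8 CPM, and COL1A2, LUM and TCF21 stayed at or under a mean of 0.172 CPM in every group. The part of such markers in the results below was not tested, and in bulk libraries fewer cells of a type and less RNA per cell cannot be told apart.

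In the ITGB4-low clone, CA9, BNIP3 and SLC2A3 were more than 2-fold higher than in ITGB4-high cells, most enzymes of glycolysis were 1.11 to 1.57-fold higher, and ANGPTL4 was about 5-fold lower. Of the 41 genes, 25 rose, 8 fell and 8 were not called at an adjusted p under 0.05 (edgeR quasi-likelihood test, Benjamini-Hochberg over all genes tested). Called genes were thus 80.5% of the 41, where 56.2% of all tested genes were called, 28.6% higher and 27.6% lower. The median log2 fold change was 0.27 over the 41 and 0.0009 over all tested genes. Past 2-fold, 3 rose and 1 fell, where 13.1% of all tested genes did so in either direction, 9.12% higher and 3.95% lower. For 34 of the 41 genes every library of 1 group lay above every library of the other (82.9%), which held for 68.7% of tested genes. These genes are also more abundant than most, with a median level of 116 CPM against 22.1, and their median standard error (SE) was 0.058 against 0.084, so smaller differences could be called.

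**Figure D1:**
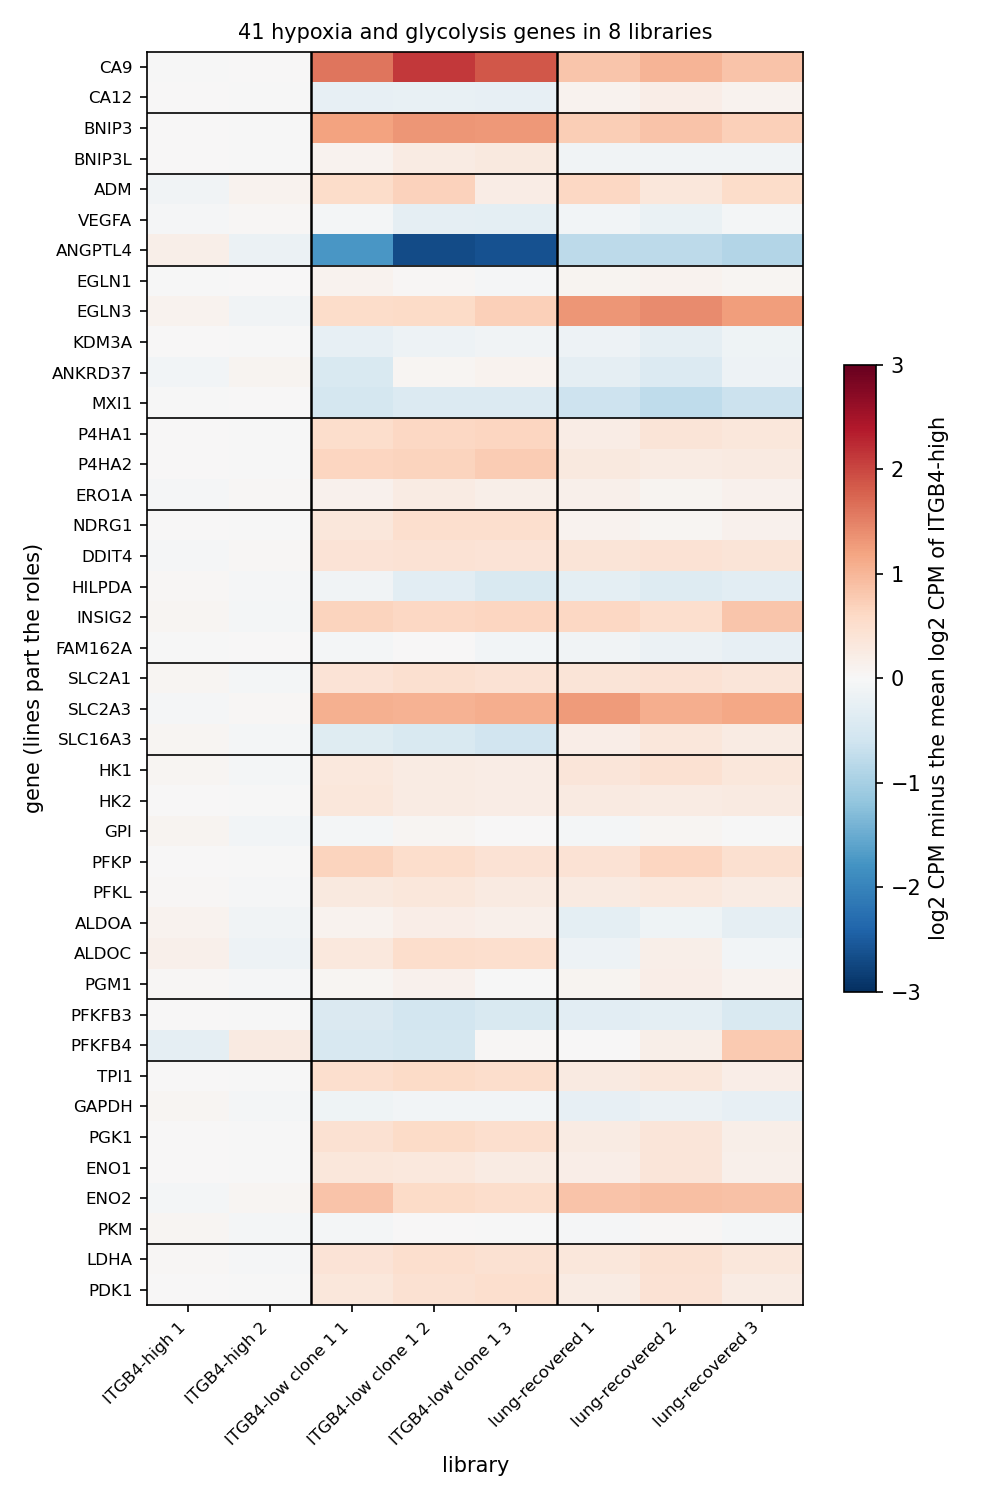
Level of each of the 41 genes (rows, grouped by role) in each of the 8 libraries (columns), as log2 CPM minus the mean log2 CPM of the 2 ITGB4-high libraries (colour). CA9 and BNIP3 are reddest in ITGB4-low and paler in lung-recovered libraries, EGLN3 is reddest in lung-recovered libraries, and ANGPTL4 is bluest in ITGB4-low.

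Among the regulators of pH, CA9 changed most. CA9, a cell-surface carbonic anhydrase that acidifies the medium and is a classical HIF target (ENSG00000107159, hg38 chr9:35673856-35681159), stood at 8.34 and 8.53 CPM in ITGB4-high, 25.7, 36.7 and 30.7 in ITGB4-low, and 14.9, 17.2 and 15.2 in lung-recovered libraries. No library of any group reached into the range of another, and the lung-recovered libraries lay between the dish-grown groups. The log2 fold change of ITGB4-low over ITGB4-high was 1.88 ± 0.12 (SE, adjusted p = 1.11e-10). CA9 shares 643 exon bases (38.5% of its exon length) with ARHGEF39 on the opposite strand, and the strand setting of the counting is not given. ARHGEF39 stood at 25.9, 26.8 and 23.4 CPM in the 3 groups and did not pass the test between the dish-grown groups. The other carbonic anhydrase, CA12, moved the opposite way: 156 and 155 CPM in ITGB4-high, 131, 132 and 132 in ITGB4-low, and 167, 178 and 166 in lung-recovered libraries. Its levels were tight within each dish-grown group, and the log2 fold change of ITGB4-low over ITGB4-high was -0.24 ± 0.05 (adjusted p = 0.000185).

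Both mitophagy receptors rose in ITGB4-low cells, BNIP3 far more than BNIP3L. BNIP3, an outer mitochondrial membrane protein that draws mitochondria into autophagosomes (ENSG00000176171, hg38 chr10:131966455-131982013), stood at 62.2 and 60.4 CPM in ITGB4-high, 141, 154 and 152 in ITGB4-low, and 103, 110 and 101 in lung-recovered libraries. The 3 groups did not overlap, with the lung-recovered libraries midway. Its log2 fold change of ITGB4-low over ITGB4-high was 1.28 ± 0.06 (adjusted p = 2.12e-13). Processed pseudogenes named for BNIP3 had 2.21% of its level, so few reads were assigned to them. BNIP3L rose by 0.22 ± 0.05 on the log2 scale (adjusted p = 0.0013). Per kilobase of exon, BNIP3 made up 30.7% ± 0.2 (SD, n = 2) of the pair in ITGB4-high, 48.0% ± 0.6 (n = 3) in ITGB4-low and 44.9% ± 1.1 (n = 3) in lung-recovered libraries.

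The secreted factors did not move together. ANGPTL4, an inhibitor of lipoprotein lipase (ENSG00000167772, hg38 chr19:8363289-8374373), stood at 11.4 and 8.85 CPM in ITGB4-high, 3.01, 1.55 and 1.65 in ITGB4-low, and 5.80, 5.82 and 5.45 in lung-recovered libraries. ITGB4-low libraries were lowest, ITGB4-high libraries highest, and no groups overlapped. The log2 fold change of ITGB4-low over ITGB4-high was -2.30 ± 0.19 (adjusted p = 4.04e-09). VEGFA, the main growth factor of blood vessels and a textbook hypoxia target, stood at 262 and 278 CPM in ITGB4-high, 258, 224 and 219 in ITGB4-low, and 256, 234 and 260 in lung-recovered libraries. It was lower in ITGB4-low by a small margin, the log2 fold change being -0.21 ± 0.06 (adjusted p = 0.00874), and the call was lost without ITGB4-high replicate 2 (adjusted p = 0.0908) or ITGB4-low replicate 3 (adjusted p = 0.059). ADM, the vasodilator peptide adrenomedullin, was scarce: 2.56 and 3.00 CPM in ITGB4-high, 4.08, 4.50 and 3.26 in ITGB4-low, and 4.24, 3.50 and 4.06 in lung-recovered libraries. Its rise in ITGB4-low, 0.50 ± 0.18 (adjusted p = 0.0268), was not called without ITGB4-high replicate 1 or ITGB4-low replicate 1 or 2 (adjusted p from 0.0509 to 0.189), nor with DESeq2 (adjusted p = 0.0572).

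Of the genes that sense oxygen or feed back on the response, EGLN3 rose and MXI1 fell, while EGLN1 and ANKRD37 were not called. EGLN3, an inducible HIF prolyl hydroxylase (ENSG00000129521, hg38 chr14:33924231-34462774), stood at 9.43 and 8.03 CPM in ITGB4-high, 12.8, 13.0 and 14.3 in ITGB4-low, and 21.7, 23.1 and 20.6 in lung-recovered libraries. The groups stepped up in that order without overlap. Its log2 fold change of ITGB4-low over ITGB4-high was 0.62 ± 0.10 (adjusted p = 3.7e-05). EGLN1, the main HIF prolyl hydroxylase in normal oxygen, ran from 136 to 151 CPM over the 8 libraries. MXI1, an antagonist of MYC, stood at 115 and 116 CPM in ITGB4-high, 79.9, 87.5 and 86.9 in ITGB4-low, and 74.8, 68.5 and 73.9 in lung-recovered libraries. MXI1 thus stepped down where EGLN3 stepped up, by -0.45 ± 0.05 in the ITGB4-low clone (log2, adjusted p = 6.06e-07). KDM3A, a histone demethylase, was lower by -0.16 ± 0.06 (adjusted p = 0.036), a call lost without either ITGB4-high library or without ITGB4-low replicate 1 (adjusted p from 0.0693 to 0.116) and at an adjusted p of 0.05 without lung-recovered replicate 1. That call was also lost with upper-quartile scaling (adjusted p = 0.0693), with DESeq2 (adjusted p = 0.0641) and in a fit of only the groups compared (adjusted p = 0.0514). ANKRD37 ran from 3.21 to 4.75 CPM and shares 35.2% of its exon length with UFSP2 on the opposite strand, which averaged 32.2 CPM over the libraries against 4.05 for ANKRD37.

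Both collagen prolyl hydroxylase subunits rose. P4HA2, a catalytic subunit of the enzyme that hydroxylates proline in collagen (ENSG00000072682, hg38 chr5:132191838-132295315), stood at 38.0 and 37.6 CPM in ITGB4-high, 59.3, 59.7 and 64.3 in ITGB4-low, and 46.1, 45.1 and 45.9 in lung-recovered libraries. P4HA1, the other catalytic subunit, stood at 49.1 and 48.1 CPM in ITGB4-high, 69.7, 74.6 and 75.6 in ITGB4-low, and 57.0, 63.7 and 61.2 in lung-recovered libraries. For both genes ITGB4-low libraries were highest and the lung-recovered ones lay between the dish-grown groups without overlap. The log2 fold changes of ITGB4-low over ITGB4-high were 0.69 ± 0.06 for P4HA2 (adjusted p = 3.38e-09) and 0.59 ± 0.06 for P4HA1 (adjusted p = 4.89e-08). ERO1A, an oxidase that forms disulphide bonds in the endoplasmic reticulum, rose by 0.18 ± 0.05 (adjusted p = 0.00499), a call lost without ITGB4-high replicate 1 (adjusted p = 0.0871).

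Of the 5 remaining induced genes, INSIG2, NDRG1 and DDIT4 rose, HILPDA fell and FAM162A was not called. INSIG2, which holds back sterol synthesis, stood at 11.2 and 10.5 CPM in ITGB4-high, 17.1, 16.7 and 16.8 in ITGB4-low, and 16.7, 15.4 and 19.3 in lung-recovered libraries. Both ITGB4-high libraries were lowest, and the other groups overlapped. Its log2 fold change of ITGB4-low over ITGB4-high was 0.64 ± 0.10 (adjusted p = 1.88e-05). NDRG1, a stress-responsive gene, rose by 0.45 ± 0.05 (adjusted p = 5.66e-07), and DDIT4, an inhibitor of mTORC1, by 0.42 ± 0.05 (adjusted p = 1.92e-07), from 1613 to 2162 CPM. HILPDA, a lipid droplet protein, stood at 11.8 and 11.1 CPM in ITGB4-high, 10.7, 9.19 and 8.29 in ITGB4-low, and 9.28, 8.75 and 9.14 in lung-recovered libraries. Its fall of -0.29 ± 0.11 (adjusted p = 0.0301) was not called without either ITGB4-high library or without ITGB4-low replicate 2 or 3 (adjusted p from 0.0507 to 0.154), nor with DESeq2 (adjusted p = 0.0626). FAM162A, a mitochondrial protein linked to cell death, ran from 39.7 to 47.5 CPM.

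Glucose importers rose in the ITGB4-low clone and the lactate exporter SLC16A3 fell. SLC2A3 (GLUT3), a high-affinity glucose transporter (ENSG00000059804, hg38 chr12:7919230-7936275), stood at 22.1 and 23.0 CPM in ITGB4-high, 47.5, 46.3 and 47.8 in ITGB4-low, and 54.7, 47.7 and 50.5 in lung-recovered libraries. Both ITGB4-high libraries were far below the rest, and the other groups overlapped. Its log2 fold change of ITGB4-low over ITGB4-high was 1.07 ± 0.07 (adjusted p = 7e-11). SLC2A1 (GLUT1), the common glucose transporter, stood at 223 and 209 CPM in ITGB4-high, 285, 300 and 291 in ITGB4-low, and 281, 292 and 277 in lung-recovered libraries. The same 2 libraries were lowest, with a log2 fold change of 0.43 ± 0.05 (adjusted p = 2.19e-07). Per kilobase, SLC2A3 made up 7.4% ± 0.5 of the summed SLC2A1 and SLC2A3 level in ITGB4-high, 11.0% ± 0.4 in ITGB4-low and 12.1% ± 0.9 in lung-recovered libraries (SD, n = 2, 3 and 3). SLC16A3 (MCT4), which exports lactate (ENSG00000141526, hg38 chr17:82228397-82261129), stood at 138 and 127 CPM in ITGB4-high, 102, 96.8 and 89.4 in ITGB4-low, and 152, 167 and 157 in lung-recovered libraries. ITGB4-low libraries were lowest, lung-recovered libraries highest, and no groups overlapped. The log2 fold change of ITGB4-low over ITGB4-high was -0.46 ± 0.06 (adjusted p = 1.44e-06). CSNK1D, which shares 5.4% of the exon length of SLC16A3 on the opposite strand, was also called lower in ITGB4-low, by -0.28 on the log2 scale.

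Of the 8 genes from hexokinase to aldolase, 6 rose in ITGB4-low and none fell, where 28.6% of all tested genes rose and 27.6% fell. Called were thus 75.0% of the 8, against 56.2% of all tested genes. HK1, the housekeeping hexokinase that traps glucose in the cell, stood at 373 and 341 CPM in ITGB4-high, 441, 420 and 414 in ITGB4-low, and 462, 487 and 452 in lung-recovered libraries, the groups stepping up without overlap. HK1 rose by 0.25 ± 0.05 (log2, adjusted p = 0.000352), and its inducible relative HK2 by 0.27 ± 0.05 (adjusted p = 9.53e-05). PFKP, the platelet form of phosphofructokinase, stood at 143 and 139 CPM in ITGB4-high, 224, 201 and 189 in ITGB4-low, and 191, 220 and 195 in lung-recovered libraries. ITGB4-high was lowest and the other groups overlapped, and the rise was 0.54 ± 0.07 (adjusted p = 1.04e-06). PFKL, the liver form, rose by 0.29 ± 0.05 (adjusted p = 2.77e-05), and the muscle form PFKM, outside the 41 genes, made up 30.3% ± 0.4 of the 3 forms per kilobase in ITGB4-high, 22.8% ± 1.6 in ITGB4-low and 23.6% ± 0.6 in lung-recovered libraries. ALDOC, a minor aldolase, stood at 10.8 and 8.73 CPM in ITGB4-high, 12.0, 14.0 and 13.8 in ITGB4-low, and 8.78, 11.1 and 9.21 in lung-recovered libraries. The ITGB4-low libraries were highest, by 0.44 ± 0.12 (adjusted p = 0.00386), a call lost without ITGB4-high replicate 2 (adjusted p = 0.0955). ALDOA, the main aldolase, rose by 0.16 ± 0.06 (adjusted p = 0.0353). That value was 0.05 without ITGB4-high replicate 2 (adjusted p = 0.572) and 0.25 without ITGB4-high replicate 1, and the call was also lost without ITGB4-low replicate 2 (adjusted p = 0.137) or replicate 3 (adjusted p = 0.0661), or with DESeq2 (adjusted p = 0.0509). GPI, which isomerises glucose 6-phosphate, and PGM1, which links it to glycogen, were not called, with log2 fold changes of -0.0001 and 0.05.

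Of the enzymes that set fructose 2,6-bisphosphate, the activator of phosphofructokinase, PFKFB3 fell and PFKFB4 was not called. PFKFB3, the hypoxia-inducible kinase form, stood at 60.2 and 60.0 CPM in ITGB4-high, 44.8, 40.9 and 43.7 in ITGB4-low, and 48.3, 48.9 and 44.0 in lung-recovered libraries. Both ITGB4-high libraries were highest, and the log2 fold change of ITGB4-low was -0.48 ± 0.06 (adjusted p = 1.28e-06). PFKFB4 stood between 1.22 and 3.05 CPM in the 8 libraries, and its groups overlapped in every comparison.

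From triose phosphate to pyruvate, TPI1, PGK1, ENO1 and ENO2 rose, and GAPDH and PKM were not called. ENO2, the neuronal enolase, stood at 5.21 and 5.73 CPM in ITGB4-high, 9.91, 8.11 and 7.85 in ITGB4-low, and 9.91, 10.2 and 10.1 in lung-recovered libraries. The ITGB4-high libraries were lowest, by 0.65 ± 0.13 on the log2 scale (adjusted p = 0.00021), though per kilobase ENO2 was only 0.29 to 0.45% of both enolases in the group means. Rises were 0.53 ± 0.05 for TPI1 (triose phosphate isomerase, adjusted p = 1.7e-08), 0.51 ± 0.05 for PGK1 (phosphoglycerate kinase, adjusted p = 1.23e-07) and 0.30 ± 0.06 for ENO1 (the common enolase, adjusted p = 0.000221). GAPDH, the dehydrogenase often used as a reference gene, stood at 5664 and 5186 CPM in ITGB4-high, 4990, 5154 and 5141 in ITGB4-low, and 4540, 4829 and 4557 in lung-recovered libraries. Its group means descended in that order, and its log2 fold change between the dish-grown groups, -0.09 ± 0.05, was not called (adjusted p = 0.134). Pyruvate kinase PKM had a log2 fold change of -0.02 ± 0.05.

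Of the 41 genes, both that direct pyruvate away from the mitochondria rose. LDHA, the lactate dehydrogenase subunit that favours lactate formation (ENSG00000134333, hg38 chr11:18394388-18408425), stood at 1649 and 1574 CPM in ITGB4-high, 2156, 2288 and 2214 in ITGB4-low, and 2049, 2217 and 2032 in lung-recovered libraries. Both ITGB4-high libraries were lowest, and the other groups overlapped. The log2 fold change of ITGB4-low over ITGB4-high was 0.46 ± 0.05 (adjusted p = 2.18e-07). Per kilobase, LDHA made up 56.9% ± 0.1 of LDHA and LDHB in ITGB4-high, 67.0% ± 0.5 in ITGB4-low and 64.6% ± 0.6 in lung-recovered libraries. PDK1, a kinase that turns off pyruvate dehydrogenase, rose by 0.43 ± 0.06 (adjusted p = 8.54e-06). Its share of PDK1, PDK2 and PDK3 per kilobase was 57.3% ± 0.5, 66.0% ± 0.8 and 66.4% ± 1.4 in the same order. Outside the 41 genes, its relative PDK3 rose in ITGB4-low, while PDK2 fell (-0.40 ± 0.10, adjusted p = 0.00171). PDK4, left out of that share, also fell (-1.96 ± 0.29, adjusted p = 9.06e-06).

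**Figure D2:**
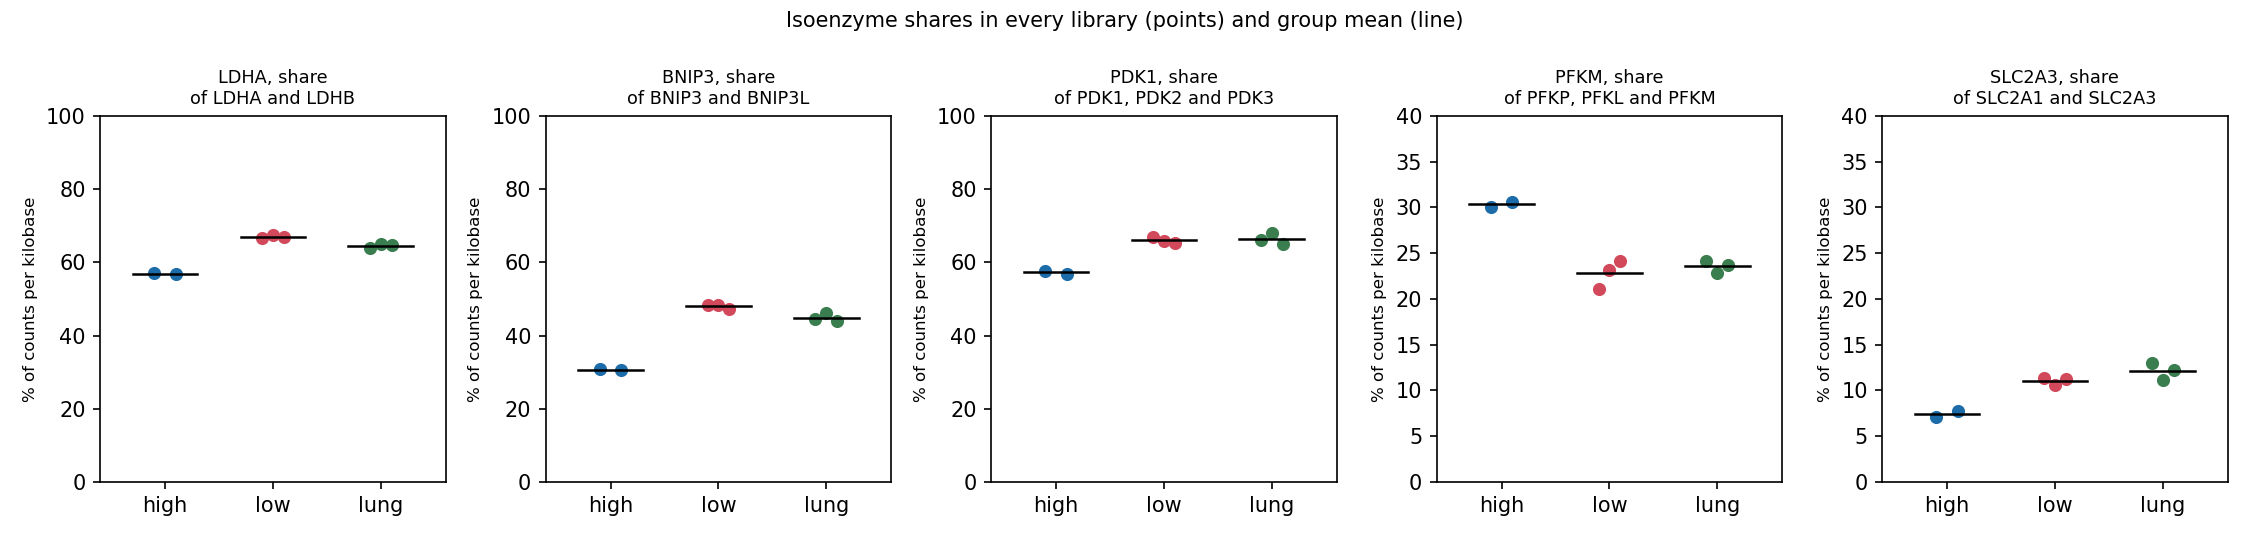
Share of each named gene in the summed counts per kilobase of its family (y axis, %), by group (high, ITGB4-high; low, ITGB4-low clone 1; lung, lung-recovered), with a point per library and a line at the group mean. The LDHA, BNIP3, PDK1 and SLC2A3 shares are lowest and the PFKM share is highest in both ITGB4-high libraries.

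Lung-recovered cells were next compared with the dish-grown clone from which they came. CA9, BNIP3, both collagen prolyl hydroxylase subunits and both aldolases were lower in lung-recovered cells, ANGPTL4, SLC16A3, EGLN3 and CA12 were higher, and the glucose importers and LDHA were not called. Of the 41 genes, 5 rose, 12 fell and 24 were not called, so that 41.5% were called where 30.1% of all tested genes were, 14.7% higher and 15.4% lower. The median log2 fold change was -0.02 against 0.0003 over all tested genes. Past 2-fold, ANGPTL4 was the only one of the 41, where 5.51% of tested genes were (3.2% higher and 2.31% lower), and libraries did not overlap for 19 of the 41 (46.3%) against 43.3% of tested genes. Of the 21 glucose-to-lactate genes 2 rose and 5 fell, and of the 20 others 3 rose and 7 fell.

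**Figure D3:**
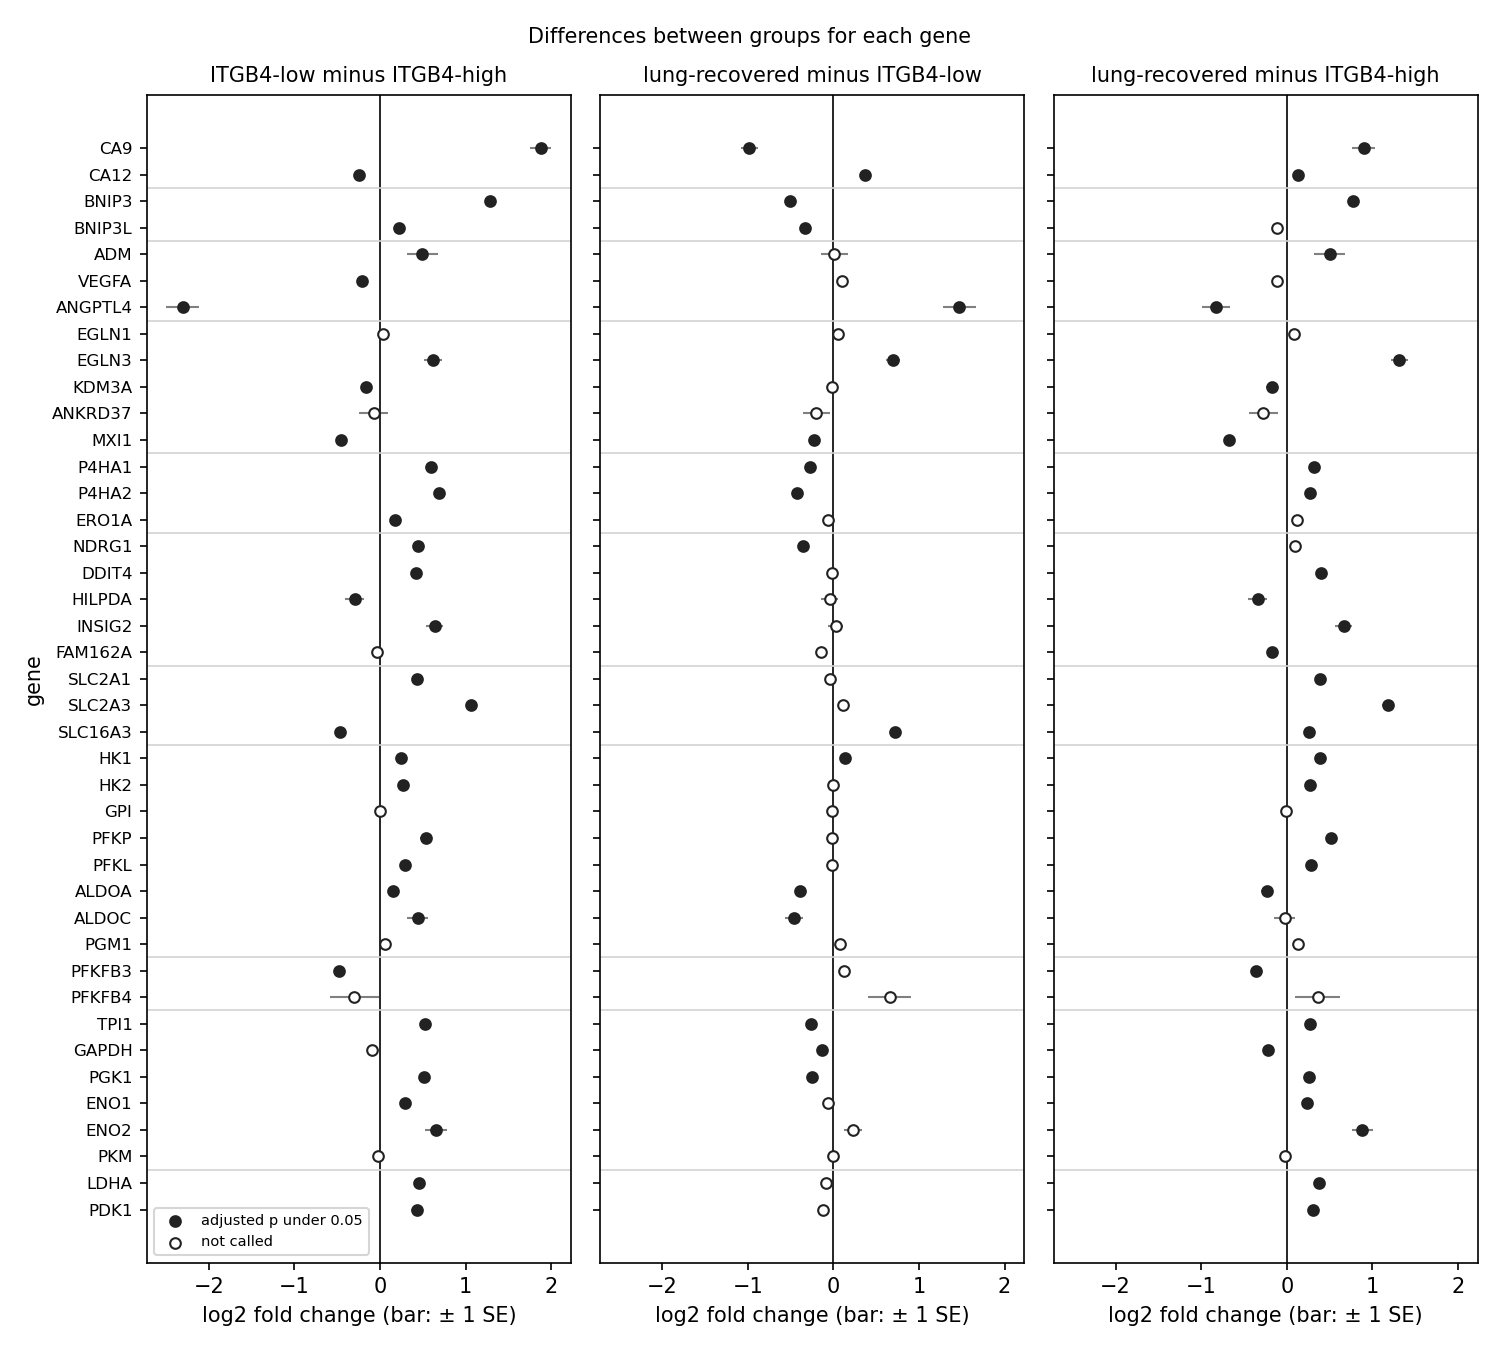
Log2 fold change (x axis, with ± 1 SE) of each of the 41 genes (rows) in the 3 comparisons (panels); filled points passed an adjusted p of 0.05 and open points did not. CA9 lies at 1.88 in the first panel and at -0.98 in the second, and ANGPTL4 at -2.30 and 1.47.

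Among the falls, CA9 changed by -0.98 ± 0.10 on the log2 scale (adjusted p = 1.97e-07), from a mean of 31.0 to 15.8 CPM. ARHGEF39, its partner on the opposite strand, also fell, by -0.20 (adjusted p = 0.0443). BNIP3 changed by -0.51 ± 0.05 (adjusted p = 5.76e-08) and BNIP3L by -0.33 ± 0.05 (adjusted p = 1.65e-05). The hydroxylase subunits P4HA2 and P4HA1 changed by -0.42 ± 0.05 (adjusted p = 1.82e-06) and -0.28 ± 0.05 (adjusted p = 0.000353), while the collagen chains COL1A1 and COL3A1 of the marker list rose by 1.72 (adjusted p = 1.71e-14) and 1.89 (adjusted p = 5.93e-05). NDRG1 changed by -0.35 ± 0.05 (adjusted p = 7.99e-06), and 11 tested genes within 2 Mb of it had a median of -0.24 (-0.07 over 15 genes within 5 Mb). MXI1 fell further, by -0.23 ± 0.05 (adjusted p = 0.00153). In glycolysis the falls were ALDOC (-0.46 ± 0.11, adjusted p = 0.0027), ALDOA (-0.39 ± 0.05, adjusted p = 1.36e-05), TPI1 (-0.26 ± 0.04, adjusted p = 8.8e-05), PGK1 (-0.25 ± 0.05, adjusted p = 0.000474) and GAPDH (-0.13 ± 0.04, adjusted p = 0.0292). The GAPDH call was lost without ITGB4-low replicate 2 or 3 or lung-recovered replicate 1 or 3 (adjusted p from 0.0874 to 0.156).

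Among the rises, ANGPTL4 changed by 1.47 ± 0.19 (log2, adjusted p = 6.58e-06) and SLC16A3 by 0.72 ± 0.05 (adjusted p = 1.78e-09), so both moved back towards or past the ITGB4-high level. CSNK1D, which overlaps SLC16A3 on the opposite strand, was called higher as well, by 0.16. EGLN3 changed by 0.70 ± 0.08 (adjusted p = 1.56e-06) and CA12 by 0.37 ± 0.04 (adjusted p = 8.35e-07). HK1 changed by 0.14 ± 0.05 (adjusted p = 0.0299), a call lost without ITGB4-low replicate 2 or 3 or lung-recovered replicate 1 or 2 (adjusted p from 0.0755 to 0.131). VEGFA was not called (0.10 ± 0.06, adjusted p = 0.213) but was without ITGB4-low replicate 1 (adjusted p = 0.00657). PFKFB4 was not called either (0.66 ± 0.25, adjusted p = 0.0544). It was called with no filter on low counts, with a replicate block, and without ITGB4-low replicate 3 or lung-recovered replicate 1. SLC2A3 (0.11 ± 0.06, adjusted p = 0.147), SLC2A1 (-0.04 ± 0.04, adjusted p = 0.471) and LDHA (-0.08 ± 0.05, adjusted p = 0.197) did not pass the test.

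Sorted by direction of the called change in these 2 comparisons, which share the ITGB4-low libraries, the 41 genes filled 8 of 9 possible classes. Higher in ITGB4-low than in ITGB4-high and lower again in lung-recovered cells were 10 (24.4%, where 10.4% of all tested genes were): CA9, BNIP3, BNIP3L, P4HA1, P4HA2, NDRG1, ALDOA, ALDOC, TPI1 and PGK1. Lower in ITGB4-low and higher in lung-recovered cells were CA12, ANGPTL4 and SLC16A3 (7.32%, against 8.49% of tested genes). Higher in ITGB4-low and not called afterwards were 13 (31.7%, against 15.9%): ADM, ERO1A, DDIT4, INSIG2, SLC2A1, SLC2A3, HK2, PFKP, PFKL, ENO1, ENO2, LDHA and PDK1. EGLN3 and HK1 rose at both steps (4.88%, against 2.25%) and MXI1 fell at both (2.44%, against 1.41%). VEGFA, KDM3A, HILPDA and PFKFB3 were called only in the first comparison, as lower (9.76%, against 17.7%), and GAPDH only in the second, as lower (2.44%, against 3.58%). EGLN1, ANKRD37, FAM162A, GPI, PGM1, PFKFB4 and PKM were called in neither (17.1%, against 36.3%).

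**Figure D4:**
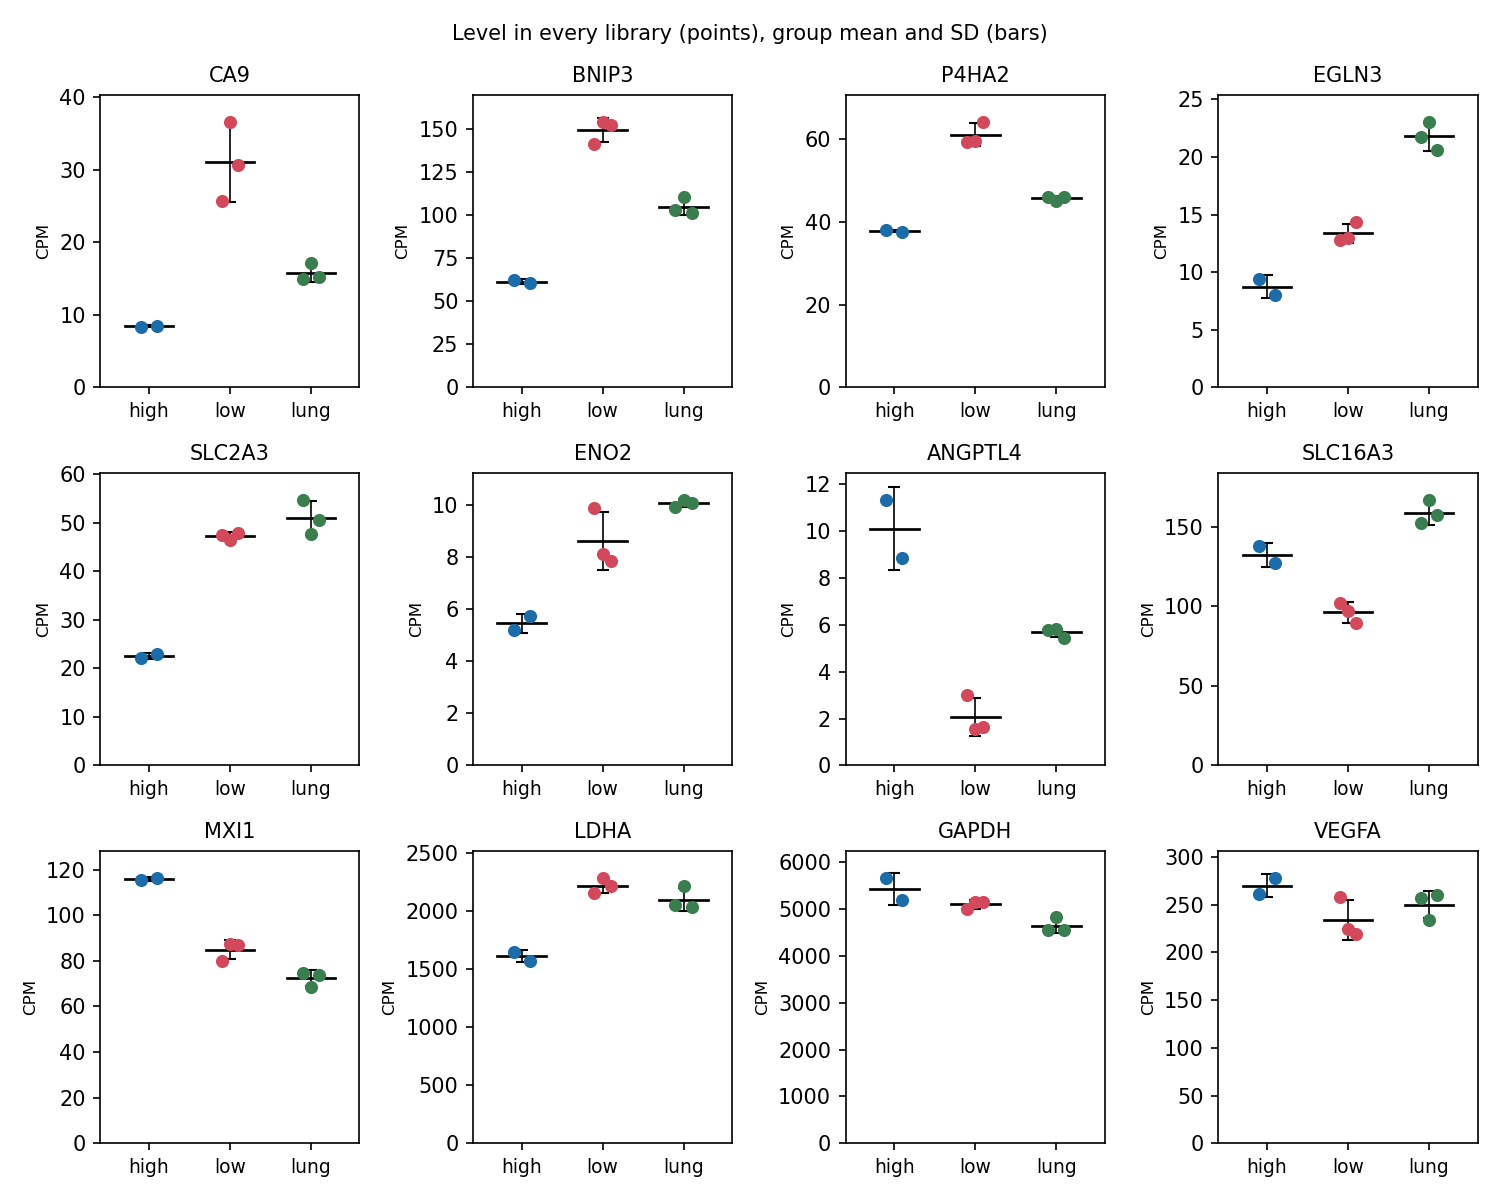
CPM (y axis, from 0) of 12 of the genes in every library (points) by group (high, ITGB4-high; low, ITGB4-low clone 1; lung, lung-recovered), with the group mean and SD as bars. CA9, BNIP3 and P4HA2 peak in ITGB4-low, EGLN3 steps up and MXI1 steps down across the groups, and SLC2A3 and LDHA are low only in ITGB4-high.

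Set against ITGB4-high cells, in a comparison that shares libraries with both others, lung-recovered cells still had higher SLC2A3, EGLN3, CA9, ENO2 and BNIP3, and lower ANGPTL4 and MXI1. Of the 41 genes 22 rose, 8 fell and 11 were not called (73.2% called, against 51.2% of tested genes, 26.2% higher and 25.0% lower). The median log2 fold change was 0.26 against 0.0051 over all tested genes, and libraries did not overlap for 37 of the 41 (90.2%) against 66.8%. Without ITGB4-high replicate 1, the number that fell was 4 in place of 8. Past 2-fold were EGLN3 (1.32 ± 0.10, adjusted p = 9.67e-10) and SLC2A3 (1.18 ± 0.07, adjusted p = 2.03e-11), both higher, where 10.6% of tested genes were past 2-fold (8.08% higher and 2.5% lower). CA9 was higher by 0.90 ± 0.13 (adjusted p = 9.07e-06), ENO2 by 0.88 ± 0.12 (adjusted p = 6.64e-06), BNIP3 by 0.77 ± 0.06 (adjusted p = 7.91e-10) and INSIG2 by 0.66 ± 0.10 (adjusted p = 1.3e-05). PFKP (0.52 ± 0.07), DDIT4 (0.40 ± 0.05), SLC2A1 (0.39 ± 0.05), HK1 (0.39 ± 0.05) and LDHA (0.38 ± 0.05) rose too, each with an adjusted p at or below 3.37e-06. ERO1A (0.12 ± 0.05, adjusted p = 0.0615) and PGM1 (0.13 ± 0.06, adjusted p = 0.0601) were not called. Both were called with upper-quartile scaling and in a fit of only the groups compared. The same held with a filter of at least 1 CPM in at least 2 libraries, and without ITGB4-low replicate 1. ERO1A was also called without lung-recovered replicate 2. SLC16A3 stood above the ITGB4-high level by 0.26 ± 0.06 (adjusted p = 0.000835). CA12 did so by 0.13 ± 0.05 (adjusted p = 0.024), and its call was lost without either ITGB4-high library or without lung-recovered replicate 2 (adjusted p from 0.0793 to 0.109), and with no filter on low counts (adjusted p = 0.0647).

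The falls against ITGB4-high were ANGPTL4 (-0.83 ± 0.16, adjusted p = 0.000262), MXI1 (-0.68 ± 0.05, adjusted p = 2.7e-09), PFKFB3 (-0.35 ± 0.06, adjusted p = 5.14e-05), HILPDA (-0.34 ± 0.11, adjusted p = 0.0148), ALDOA (-0.23 ± 0.06, adjusted p = 0.00297), GAPDH (-0.22 ± 0.05, adjusted p = 0.000866), FAM162A (-0.18 ± 0.06, adjusted p = 0.0166) and KDM3A (-0.18 ± 0.06, adjusted p = 0.0236). Without ITGB4-high replicate 1, HILPDA (adjusted p = 0.0923), ALDOA (log2 -0.13, adjusted p = 0.117), FAM162A (adjusted p = 0.0508) and KDM3A (adjusted p = 0.0838) were not called. FAM162A was also lost without ITGB4-high replicate 2 or lung-recovered replicate 3 (adjusted p = 0.0546 and 0.085), and KDM3A without ITGB4-high replicate 2 or lung-recovered replicate 2 (adjusted p = 0.0534 and 0.097). The rise of ADM, 0.50 ± 0.18 (adjusted p = 0.0254), was lost without ITGB4-high replicate 1 or lung-recovered replicate 1 or 3 (adjusted p from 0.0664 to 0.183), and with DESeq2 (adjusted p = 0.0581). By group mean, the lung-recovered level lay between those of the dish-grown groups for 20 of the 41 genes, above both for 10 and below both for 11. These shares (48.8, 24.4 and 26.8%) were near those over all tested genes (48.4, 26.2 and 25.5%).

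Summed, the 41 genes took 1.84 and 1.75% of counts in ITGB4-high, 1.99, 2.05 and 2.01% in ITGB4-low, and 1.88, 2.00 and 1.86% in lung-recovered libraries, mostly from GAPDH, ENO1, PKM, LDHA and DDIT4. Levels of different genes were compared per length, as TPM, counts per GENCODE 29 exon length scaled to a common total. In ITGB4-low cells GAPDH led at 6819 TPM, followed by DDIT4 at 4191, ENO1 at 2161, LDHA at 1426, PKM at 1195 and TPI1 at 1158. The more abundant form of each pair was SLC2A1 (247 TPM, SLC2A3 30.6), HK1 (269, HK2 81.8) and ALDOA (246, ALDOC 18.1). Within each pair the order was the same in all 3 groups. In ITGB4-high, PKM (1158 TPM) stood above LDHA (990). Shares of DDIT4 and ALDOA carry the doubt that 41.2% of the DDIT4 exon length overlaps an antisense gene and 42.3% of that of ALDOA another coding gene on its own strand, though these had 1.93 and 2.11 CPM.

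**Figure D5:**
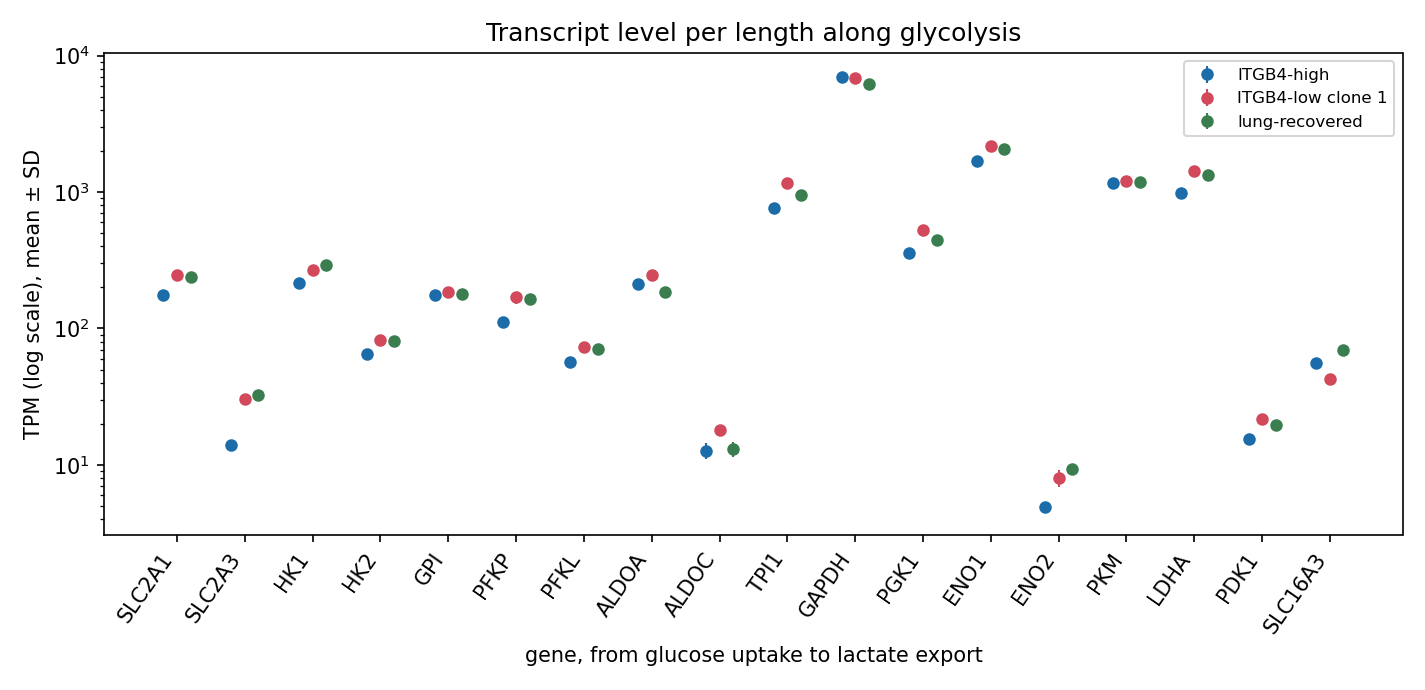
TPM (y axis, log scale, mean ± SD) of the genes from glucose uptake to lactate export, and of the regulator PDK1 (x axis), in each group (colours). Of the 18 genes plotted, which leave out the PFKFB regulators and PGM1, GAPDH is highest and ENO2 lowest in every group, and differences between genes are far larger than those between groups.

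The wider pathway was read from lists of related genes. The lists were chosen with earlier results of these data known, so their called shares are descriptions and not independent support. Of 11 tested HIF subunits and regulators, 4 rose and 3 fell in ITGB4-low against ITGB4-high, a called share of 63.6% near the 56.2% of all tested genes. HIF1A, the alpha subunit that drives glycolytic targets, stood at 594 and 579 CPM in ITGB4-high, 1163, 1011 and 1032 in ITGB4-low, and 788, 790 and 771 in lung-recovered libraries. The groups did not overlap, and HIF1A changed by 0.87 ± 0.06 (adjusted p = 8.08e-11) in the ITGB4-low clone and by -0.45 ± 0.05 (adjusted p = 4.65e-07) in lung-recovered cells. EPAS1 (HIF-2 alpha) went the other way, with 270 and 255 CPM, then 196, 196 and 207, then 257, 247 and 255, a change of -0.39 ± 0.05 (adjusted p = 5.62e-07) followed by 0.34 ± 0.04 (adjusted p = 2.96e-06). VHL, which targets both for destruction, was lower in ITGB4-low (-0.44 ± 0.05, adjusted p = 3.51e-07) and higher in lung-recovered cells (0.46 ± 0.05, adjusted p = 1.32e-07). The partner ARNT fell by -0.35 ± 0.05 in ITGB4-low (adjusted p = 9.27e-06). Its relative ARNT2 had 0 counts in ITGB4-high and 166 and 65 counts over the other groups, so it was at least 44.1-fold higher in ITGB4-low and at least 16.2-fold higher in lung-recovered cells against a floor of 3 counts over the group. In lung-recovered against ITGB4-low cells 2 of the 11 rose and 4 fell (54.5% called, against 30.1%), ARNT2 by the most (-1.46 ± 0.27, adjusted p = 0.000327), and against ITGB4-high 2 rose and 1 fell (27.3%, against 51.2%).

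Of 28 further genes listed as hypoxia-induced and tested, 16 rose and 5 fell in ITGB4-low against ITGB4-high, 7 rose and 10 fell in lung-recovered against ITGB4-low, and 12 rose and 6 fell in lung-recovered against ITGB4-high. Called shares were 75.0, 60.7 and 64.3%, where 56.2, 30.1 and 51.2% of all tested genes were called. Past 2-fold, 8 of the 28 rose and 0 fell in ITGB4-low, where 9.12% of all tested genes rose and 3.95% fell. One of the 8 was PLOD2, with 165 counts in ITGB4-high and 1683 in ITGB4-low (2.99 ± 0.11, adjusted p = 1.76e-14). In lung-recovered cells 2 rose and 3 fell past 2-fold against ITGB4-low (3.2 and 2.31% of tested genes). Against ITGB4-high 7 rose and 0 fell (8.08 and 2.5%). IGFBP3, which binds insulin-like growth factors, stood at 0.226 and 0.273 CPM in ITGB4-high, 1.12, 0.938 and 1.53 in ITGB4-low, and 18.5, 13.4 and 19.9 in lung-recovered libraries. It changed by 2.26 ± 0.45 in ITGB4-low (adjusted p = 0.000285) and by a further 3.84 ± 0.18 (adjusted p = 2.27e-12). IGFBP5 had 3 counts in ITGB4-high and 48 in ITGB4-low, a ratio of 12.8 with a 95% counting interval of 4.11 to 64.1, and it fell in lung-recovered cells by -2.07 ± 0.49 (adjusted p = 0.00315). The largest falls were JMJD6 in ITGB4-low (-0.66 ± 0.11, adjusted p = 2.45e-05) and KLHL24 in lung-recovered against ITGB4-high cells (-0.43 ± 0.09, adjusted p = 0.000327).

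Of 15 further glycolysis and lactate genes tested, 9 rose and 3 fell in ITGB4-low, 2 rose and 1 fell in lung-recovered against ITGB4-low, and 7 rose and 2 fell against ITGB4-high. Called were thus 12, 3 and 9 of the 15, where 56.2, 30.1 and 51.2% of all tested genes were called, so the share was below that of all genes in the second comparison. LDHB, the lactate dehydrogenase subunit that favours pyruvate, was slightly lower in ITGB4-low: 598 and 575 CPM against 520, 529 and 524 (-0.16 ± 0.05, adjusted p = 0.00473), with 554, 570 and 534 CPM in lung-recovered libraries. BSG (basigin), the chaperone of lactate transporters, fell in ITGB4-low (-0.32 ± 0.05, adjusted p = 2.25e-05) as did SLC16A3. SLC16A1 (MCT1), another lactate transporter, went the opposite way to SLC16A3: it rose in ITGB4-low (0.32 ± 0.05, adjusted p = 1.09e-05) and fell in lung-recovered cells (-0.23 ± 0.04, adjusted p = 0.000337), where ADPGK, an ADP-dependent glucokinase, rose (0.18 ± 0.05, adjusted p = 0.011). PFKFB1 was the largest rise in ITGB4-low but rested on 24 counts against 4.

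Of 13 genes for pyruvate entry into mitochondria, 5 rose and 4 fell in ITGB4-low, 4 rose and 2 fell in lung-recovered against ITGB4-low, and 5 rose and 4 fell against ITGB4-high. Called shares were 69.2, 46.2 and 69.2%, beside 56.2, 30.1 and 51.2% of all tested genes. Pyruvate dehydrogenase kinases split, PDK3 rising (1.07 ± 0.21, adjusted p = 0.000214) and PDK4 falling (-1.96 ± 0.29, adjusted p = 9.06e-06) in ITGB4-low, with every group mean at or below 4.10 CPM, and both turned back in lung-recovered cells (-0.66 ± 0.18, adjusted p = 0.00771, and 0.87 ± 0.305, adjusted p = 0.0363). DLD, the shared dehydrogenase subunit, was highest in lung-recovered cells, 0.61 ± 0.05 above ITGB4-high (adjusted p = 1.11e-08). MPC1, a subunit of the mitochondrial pyruvate carrier, ran from 18.3 to 22.7 CPM and was not called in any comparison. Of 7 pentose phosphate genes tested, 0 rose and 3 fell in ITGB4-low, with TKT (transketolase) at 708 and 685 CPM against 413, 457 and 438 (-0.67 ± 0.05, adjusted p = 1.45e-09). In lung-recovered against ITGB4-low cells 4 of the 7 rose and 1 fell, TKT by 0.28 ± 0.05 (adjusted p = 0.000158) and PGLS by -0.21 ± 0.06 (adjusted p = 0.0103). Against ITGB4-high 1 rose (TALDO1, 0.29 ± 0.05, adjusted p = 7.96e-05) and 3 fell, most of all PGLS (-0.51 ± 0.06, adjusted p = 1.27e-06). Called shares of this list were 42.9, 71.4 and 57.1%. Of 6 glycogen genes tested, UGP2, which makes UDP-glucose, rose in ITGB4-low (0.77 ± 0.06, adjusted p = 1.17e-09) and fell in lung-recovered cells (-0.29 ± 0.05, adjusted p = 0.000197), and GYG1, the glycogen primer, fell in ITGB4-low (-0.28 ± 0.05, adjusted p = 0.000128). In these comparisons 2 of the 6 rose and 1 fell, then 0 rose and 1 fell, and 3 rose and 1 fell against ITGB4-high, called shares of 50.0, 16.7 and 66.7%.

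Returning to the promoters, the 18 genes whose window held ACGTG had 12 rises and 1 fall in ITGB4-low (median 0.35), and the 18 without it had 10 and 5 (median 0.27), beside the 28.6% and 27.6% of all tested genes. In lung-recovered against ITGB4-low cells those with ACGTG had 1 rise and 7 falls (median -0.11), and those without had 4 and 3 (median -0.01), beside 14.7% and 15.4%. ANGPTL4 was the 1 fall among those with ACGTG in the first comparison and the 1 rise in the second. In lung-recovered against ITGB4-high cells the order was turned, with 9 rises and 4 falls (median 0.19) with ACGTG and 12 and 3 (median 0.27) without. The 9 genes with neither core had 6 rises and 2 falls in ITGB4-low, and their median of 0.43 was above that of the genes with ACGTG. SLC2A3, VEGFA, BNIP3L, NDRG1 and HILPDA are in none of these counts. The median log2 fold change of tested genes starting within 2 Mb of a member was also taken in ITGB4-low against ITGB4-high. It had the sign of the member for 17 of the 33 called members and the opposite sign for 16. It was -0.005 around CA9 and 0.001 around BNIP3. It had the member's sign around NDRG1 (0.28), ERO1A (0.28), INSIG2 (0.23) and SLC16A3 (-0.17), among others, and the opposite sign around CA12 (0.24), KDM3A (0.23) and ALDOC (-0.20). In lung-recovered against ITGB4-low cells it had the member's sign for 11 of 17 called members within 2 Mb and for 8 within 5 Mb. In lung-recovered against ITGB4-high cells it had the member's sign for 19 of 30 and the opposite sign for 11, within either distance. The same share over all called genes was not taken. The part of the region in the members' values was not tested.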

How the data were processed

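Per the labels' protocols, the 8 libraries were built from poly(A) RNA with dUTP marking of the strand. The authors deposited raw counts, given as whole numbers for 58336 Ensembl identifiers in 1 column per library. STAR 2.7.1a and hg38 are named in the submitters' processing notes. The counter, strand setting, annotation release and read filters were not given in the sources used here, so overlapping genes and near-identical copies are uncertain. GENCODE 29 gave symbols, hg38 coordinates and exon lengths (58216 identifiers matched, 120 did not). Groups came from the sample titles. Replicates are labelled as biological, with no culture or animal named, so the p-values reflect only how far these libraries spread, which may be technical.

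All libraries entered 1 edgeR 4.0.16 quasi-likelihood fit (R 4.3.3) with a term per group, filterByExpr (15220 genes, 99.93% of counts) and TMM factors of 0.975 to 1.012. Residual degrees of freedom were 5 and the biological coefficient of variation 0.0452. P-values were adjusted by Benjamini-Hochberg over all genes tested, genes under 0.05 were called, and the SE was the log2 fold change over the square root of F. The procedure was run on simulated data in which few genes changed, in the ITGB4-low group alone. Change as broad as that called here was not simulated. Without molecular identifiers, the floors and intervals given reflect counting error alone.

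The genes, the lists and the markers were chosen with earlier results of these data known. Named in full were, per comparison, up to 8 called rises and 4 called falls with the largest change, and GAPDH, VEGFA, LDHA and SLC2A1; of each related list, the largest called rise and fall, and HIF1A, EPAS1, LDHB and MPC1. Alternatives were other scalings, DESeq2 1.42.0, limma-voom (limma 3.58.1), other filters, only the groups compared, each library left out, and a replicate block.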

Additional observations from a re-analysis of the deposited data

How the results depend on the processing

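Over the 41 genes and 3 comparisons, the alternatives gave 1968 values, of which 1894 kept the call and its direction, 51 lost a call, 23 gained one and 0 called values changed sign. Among values not called in either setting, 47 changed sign over 12 genes, none larger than 0.138 on the log2 scale, and these are counted with the 1894. Leaving out 1 library at a time gave 23 to 25 rises and 6 to 8 falls in ITGB4-low against ITGB4-high, 4 to 7 and 11 to 13 in lung-recovered against ITGB4-low, and 20 to 24 and 4 to 9 in lung-recovered against ITGB4-high, the 4 falls coming without ITGB4-high replicate 1. With 1 library left in ITGB4-high, that library is assumed to vary like the other groups. The replicate block gave 24 and 7, 6 and 11, and 22 and 7, and lost the calls of HILPDA (adjusted p = 0.0783) and ALDOA (adjusted p = 0.0603) in the first comparison, GAPDH (adjusted p = 0.0744) in the second and FAM162A (adjusted p = 0.0654) in the third. Same-numbered libraries did not deviate together (correlations across genes from -0.075 to 0.04), so the numbers were not taken to pair libraries. On raw counts without length, shares in ITGB4-high, ITGB4-low and lung-recovered libraries were 73.3, 80.9 and 79.1% for LDHA, 35.4, 53.3 and 50.2% for BNIP3, 9.46, 13.9 and 15.3% for SLC2A3, 78.7, 84.5 and 84.6% for PDK1, and 33.9, 26.3 and 27.1% for PFKM, with the same order of ITGB4-high against the other groups. ACGTG alone stood in 50.0% of the 36 promoter windows, 26.7% of those of tested genes and 21.6% of the table, since fewer letters were searched. Other scalings moved the median of all genes by under 0.03. Widening the window around a member from 2 to 5 Mb moved the neighbours' median by 0.2 or more in 4 cases: PDK1 in the first comparison (to 0.251), PFKP in the second (to 0.103), and CA12 and PFKP in the third (to 0.048 and -0.012). Few counts limited ADM, PFKFB4, ANKRD37 and ANGPTL4.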
